A study of Rattus norvegicus with 10 samples.

Results

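The genes of ribosomal RNA and of 7SK RNA, together with Ubtf, were followed in a table of 8957 methylation regions. The 114 regions described here are all those whose nearest annotated gene was named 5_8S_rRNA, 5S_rRNA, 7SK or Ubtf in the deposited table. The name 5_8S_rRNA held 63 regions at 17 annotated copies, 5S_rRNA held 20 regions at 12 copies, 7SK held 23 regions at 18 copies, and Ubtf held 8 regions at its own locus on chromosome 10. A region carries the name of the nearest start site and can lie far from it. The distance to that site ranged from 36 to 937298 bases, so the regions are described by distance as well as by name.

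DNA methylation was measured by reduced representation bisulfite sequencing, which reads CpG-rich restriction fragments, in the hypothalamic arcuate nucleus, a centre of feeding control. The 10 animals were Wistar rat offspring, 5 of fathers fed a high-fat diet (paternal high-fat) and 5 of fathers fed chow (paternal chow). Fathers arrived at postnatal day 21 and were mated between days 90 and 100, and litters were adjusted on day 2 to at most 8 pups. All mothers were fed chow, and every offspring was raised on chow and moved to the high-fat diet at postnatal day 35, with tissue taken on day 70. The labels do not state the sire, litter or sex of each animal, so the spread given here is between samples that may include littermates, and animals are called by the column names of the table.

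Ribosomal RNA genes are repeated many times in mammalian genomes. RNA polymerase I transcribes a long precursor that is cut into the 5.8S RNA and the small and large ribosomal RNAs, and the upstream binding factor encoded by Ubtf keeps active repeats open, while CpG methylation of ribosomal DNA marks silent repeats. RNA polymerase III transcribes the 5S RNA genes and 7SK, whose RNA holds the elongation factor P-TEFb in an inactive complex. Annotated copies outside the main arrays include pseudogenes and fragments, and reads from near-identical copies can match several places. How such reads were counted is not given in the sources used here, so a level named for a copy may include reads of others.

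Of the 4 names, only Ubtf matched the RefSeq table. The bases before its start are shown because 2 of its regions were annotated as promoter and 6 more lay in its introns. The 250 bases before the start site, from RefSeq build GRCr8, chr10:87773089-87773338 on the minus strand, hold 35 CpGs, which are in capitals.
Ubtf promoter: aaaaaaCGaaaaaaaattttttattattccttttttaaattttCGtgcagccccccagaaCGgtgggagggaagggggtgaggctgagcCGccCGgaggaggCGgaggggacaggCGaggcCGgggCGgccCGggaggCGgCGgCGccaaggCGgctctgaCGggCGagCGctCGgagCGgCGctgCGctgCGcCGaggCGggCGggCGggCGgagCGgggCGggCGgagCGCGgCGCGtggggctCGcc
The dinucleotide CG was searched; it reads the same on both strands. The window had a GC content of 70.4%. Of 33469 promoter windows of this length, 92.2% held a CG, the median number was 5.0, and 2.58% held as many as Ubtf or more. The build of the methylation table is not given in the sources used here, so this window could not be laid over the regions below, and the coordinates below are those of the table. By the deposited distances the 2 promoter regions lay 366 and 471 bases before the start, farther out than the 250 bases shown. The marked CpGs are therefore not to be read as the measured ones.

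Many of the 114 regions were partly methylated. Their median level, the mean over the 10 animals, was 10.1%, against 2.27% over all 8957 regions. A level between 10% and 90% was found at 52 of the 114 regions (45.6%) and at 12.1% of all regions. The median level was 11.6% for 5_8S_rRNA, 9.41% for 5S_rRNA, 13.9% for 7SK and 2.07% for Ubtf. The 91 regions nearest to other small RNA names had a median of 2.60%, and 1000 intergenic regions more than 10000 bases from a start site had 2.38%.

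The authors had selected all regions in the table for a difference between the 2 paternal diets in these same animals. The differences below therefore describe the selected regions and were not tested as a set. Paternal high-fat offspring had the higher mean at 89 of the 114 regions (78.1%), beside 71.0% of all regions. By name this was 55 of 63 for 5_8S_rRNA (87.3%), 12 of 20 for 5S_rRNA, 16 of 23 for 7SK and 6 of 8 for Ubtf. The median difference, paternal high-fat minus paternal chow, was 2.70 percentage points for 5_8S_rRNA, 1.21 for 5S_rRNA, 1.96 for 7SK and 1.21 for Ubtf, beside 1.41 over all regions. The regions were not matched for level or spread. The median SD at 5_8S_rRNA regions was 4.30 in paternal high-fat and 4.79 in paternal chow offspring, beside 1.79 and 1.23 over all regions. The groups lay apart at 7 of the 114 regions, 1 of them with values for only 4 high-fat animals, a share of 6.14% beside 5.15% of all regions. The paternal high-fat animals were on top at 6 of the 114 regions, beside 3.93% of all regions. Among the regions where the groups lay apart this was 6 of 7, beside 352 of 461 over all regions. A q-value below 0.05 in the authors' deposited table was given to 4 of the 114 regions, 3 of 5_8S_rRNA and 1 of 5S_rRNA, beside 0.848% of all regions, and the other 110 had a q-value of 1. With limma across all regions, 0 of 8957 passed a Benjamini-Hochberg adjusted p of 0.05 (0% of all; smallest adjusted p 0.235). An unadjusted limma p under 0.05 was found at 22 of the 114 regions with the high-fat group on top and 3 with the chow group on top, beside 20.9% of all regions.

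**Figure D1:**
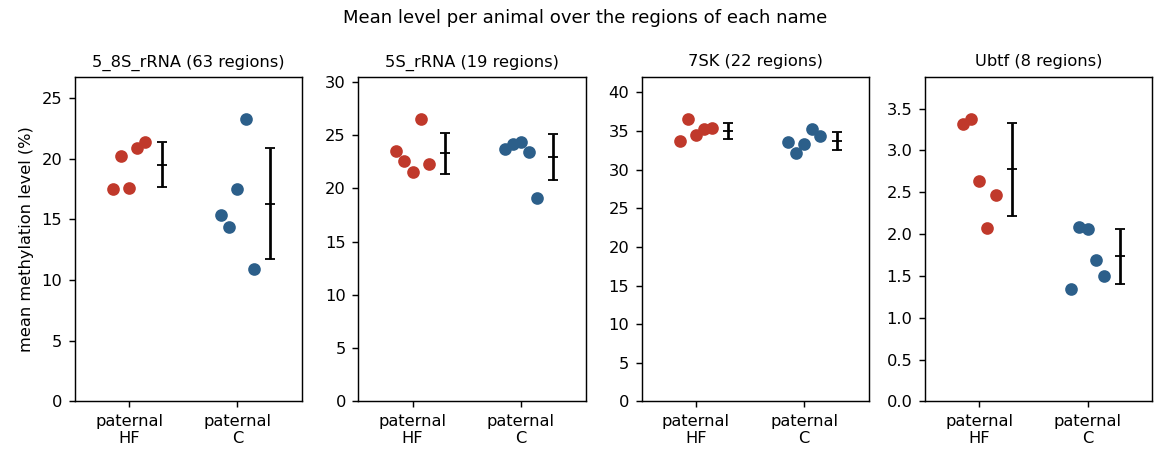
Mean methylation level (percent, vertical axes starting at 0 with a scale for each panel) of each animal over the regions of 4 names that have a value in all 10 animals; points are animals, bars are the group mean and SD, n = 5 each. The 5_8S_rRNA means ran from 17.5% to 21.4% in paternal high-fat and from 10.9% to 23.2% in paternal chow offspring, while the Ubtf means nearly separated the groups. The means over all complete regions of the table, not drawn here, lay apart.

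The 5.8S regions were higher on average in paternal high-fat offspring but did not separate the animals. The mean over the 63 regions was 17.5%, 20.2%, 17.6%, 20.9% and 21.4% in paternal high-fat animals 22HFB, 22HFR, 24HFB, 26HFB and 28HFB. It was 15.3%, 14.4%, 17.5%, 23.2% and 10.9% in paternal chow animals 2HFB, 4HFB, 6HFBB, 6HFB and 8HFB. The chow group held both the highest and the lowest of the 10 animals, and the high-fat group sat between them. The group means were 19.5% ± 1.84 and 16.3% ± 4.56 (SD, n = 5 each), a difference of 3.23 points that was smaller than the spread in paternal chow offspring. Without 8HFB the difference was 1.89 points, and without 6HFB it was 4.96 points. Without 6HFB the groups still overlapped, but narrowly, with the highest chow animal at 17.53% and the lowest high-fat animal at 17.52%. Over the 8838 regions of the whole table with complete values, the means were 7.17% ± 0.663 and 6.08% ± 0.304 (SD, n = 5 each), with the larger spread in the paternal high-fat group. The tissue was measured in bulk, so a different mix of cells and a different level per cell cannot be told apart.

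The 2 outer chow animals stood in the same order at nearly all 5.8S regions; they were picked out after the values had been seen. Animal 6HFB lay above 8HFB at 60 of the 63 regions (95.2%), against 57.3% of all complete regions. Animal 8HFB was the lowest of all 10 at 24 of 63 regions (38.1%; 9.10% of all regions), and 6HFB was the highest at 21 (33.3%; 5.52% of all regions). Chow animal 4HFB was lowest at 21 regions (33.3%; 19.6% of all regions). The high-fat animal 22HFR was highest at 18 (28.6%), a share close to its 27.2% of all regions. The SD was larger in paternal chow than in paternal high-fat offspring at 38 of 63 regions (60.3%), where this held at 34.8% of all regions. The chow range spanned the whole high-fat range at 18 of the 63, beside 483 of all 8957 regions. Away from 5.8S, 6HFB lay above 8HFB at 13 of 19 complete 5S regions and 13 of 22 complete 7SK regions. The difference between those shares was not tested.

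Counted by copy, 16 of the 17 annotated 5.8S copies were on average more methylated in paternal high-fat offspring, beside 71.0% of all regions. The share over all genes counted in this way was not computed. The copies were measured in the same 10 animals and may share reads, so they are not independent. The exception was ENSRNOG00000058080 on chromosome 7, whose 2 regions averaged 14.98% ± 2.18 in paternal high-fat and 16.4% ± 4.07 in paternal chow offspring (SD, n = 5 each). Animal 8HFB was the lowest in 10 of the 17 copies and 6HFB the highest in 6, while high-fat animal 22HFR was the highest in more copies than 6HFB. The copy with the highest levels among those with 3 or more regions was ENSRNOG00000051831 on chromosome 1, with 9 regions over 6186 bases. It averaged 29.4%, 31.1%, 34.5%, 45.5% and 46.9% in paternal high-fat offspring and 34.3%, 36.4%, 36.1%, 52.1% and 18.9% in paternal chow offspring. The groups overlapped widely there, with 6HFB at the top and 8HFB at the bottom. At ENSRNOG00000059668 on chromosome 12 all 5 regions were higher in paternal high-fat offspring, at 22.5% ± 5.57 against 15.4% ± 3.99 (SD, n = 5 each), the largest difference among the 5.8S copies at 7.09 points. All 7 regions of ENSRNOG00000055515 on chromosome 7 were also higher, at 9.78% ± 1.97 against 6.56% ± 1.66 (SD, n = 5 each).

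**Figure D2:**
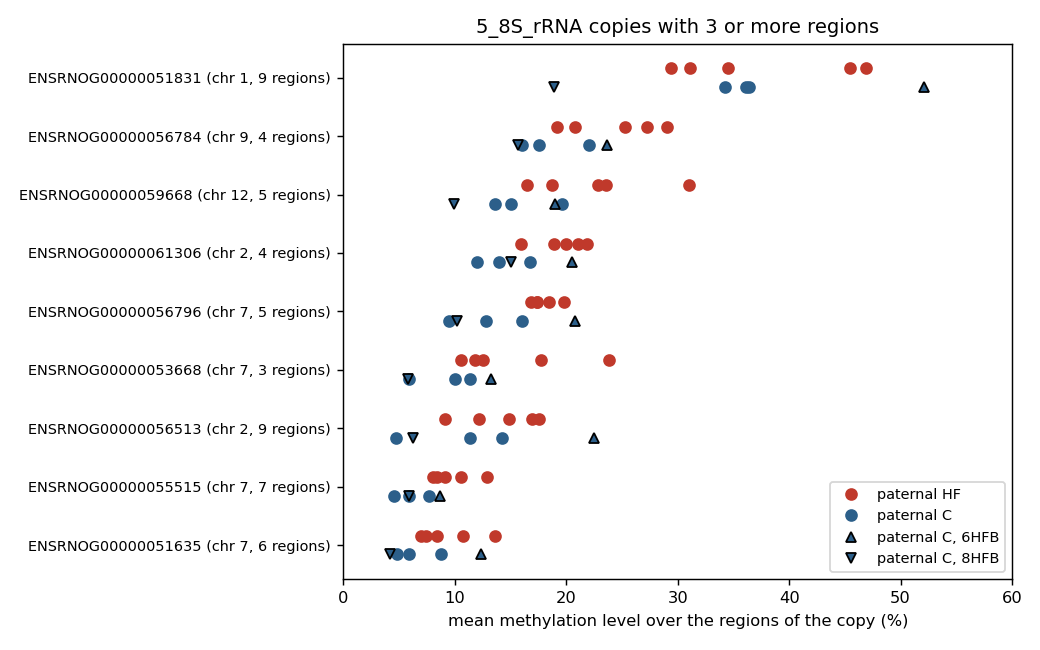
Mean methylation level (percent, horizontal axis) over the regions of each 5_8S_rRNA copy with 3 or more regions, for each animal; paternal high-fat animals are red and above the paternal chow animals in blue, with 6HFB as an upward and 8HFB as a downward triangle. In the 9 copies 6HFB is the highest or second highest chow animal, and 8HFB is among the 3 lowest chow animals.

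Methylation close to the annotated 5.8S start sites was lower than in the next distance class. The 27 regions within 1000 bases of the start had a median level of 9.75%, the 23 regions from there to 10000 bases had 28.3%, the next 11 regions up to 100000 bases had 9.19%, and the 2 regions beyond had 5.26%. Each of the 10 animals was higher in the outer class: the mean was 6.35% to 14.9% within 1000 bases and 16.8% to 36.5% in the class up to 10000 bases. The 2 classes held different copies, so the step between them also reflects which copies each class held. ENSRNOG00000051831 alone gave 8 of the 23 outer regions and 1 of the 27 inner ones. Of 6 copies with regions in both classes, 5 had the higher level farther out, and in 4 of them all 10 animals did. Most of the 6 copies had only 1 region in the outer class. At ENSRNOG00000061306 on chromosome 2 the levels were 50.9% outside and 6.49% inside 1000 bases. The exception was again ENSRNOG00000058080, with 10.5% outside and 21.0% inside. In both classes most regions were higher in paternal high-fat offspring, 23 of 27 near the start and 19 of 23 farther out, as were all 13 beyond 10000 bases. Those 13 regions were clustered at a few copies in the same 10 animals and are not independent. Some adjoined each other, such as chr12:328540-328785 and chr12:328785-328885. Over all regions the share was 71.0%, and over the 1000 other intergenic regions more than 10000 bases from a start site it was 70%.

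**Figure D3:**
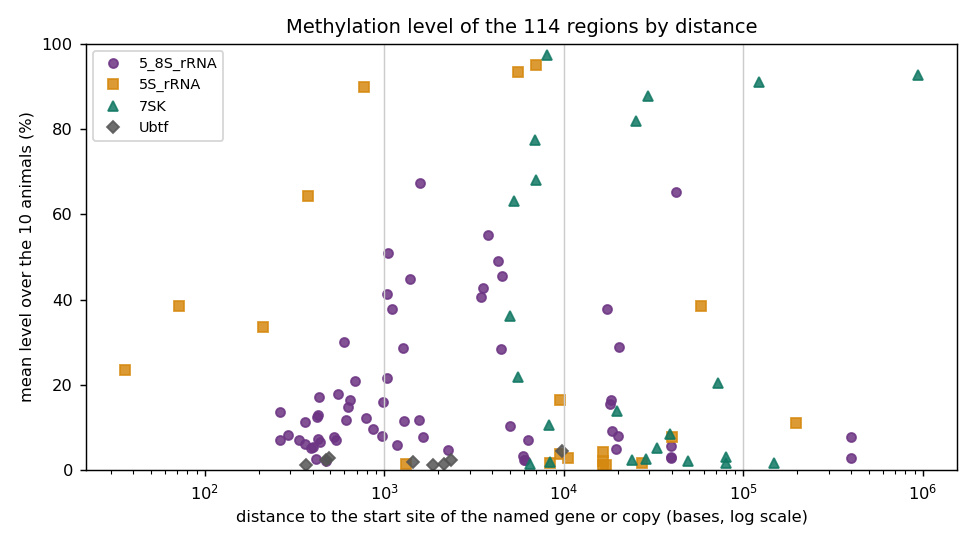
Mean methylation level over the 10 animals (percent) against the distance to the start site of the named gene or copy (bases, log scale) for the 114 regions; symbols mark the name and vertical lines the distance classes. The 5_8S_rRNA regions within 1000 bases lie at or below 30.1%, those in the class up to 10000 bases reach 67.5%, the 5S_rRNA regions within 1000 bases belong to the chromosome 19 copy, and the Ubtf regions all lie under 5%.

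The 3 5.8S regions with a deposited q-value below 0.05 were intergenic regions on chromosome 7, far from the copy that names them. The longest, chr7:99524804-99525693 with 58 CpGs, lies 42374 bases from ENSRNOG00000056796. Its level was 69.1%, 68.1%, 77.5%, 82.1% and 67.9% in paternal high-fat offspring and 36.6%, 59.9%, 68.9%, 80.2% and 42.8% in paternal chow offspring. The high-fat animals were uniformly high, while the chow animals ranged from below 40% to the level of the highest high-fat animals. The means were 73.0% ± 6.49 and 57.7% ± 18.1 (SD, n = 5 each), a difference of 15.3 points that was the 8th highest of all regions and was 9.996 points without 2HFB. The q-value in the authors' deposited table was 1.0218e-06. The groups overlapped, and the difference was smaller than the SD of the chow group.

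The other 2 showed low levels and separate groups. At chr7:99522547-99522737, 33 CpGs nearest to the same copy, the level was 11.5%, 6.35%, 5.25%, 9.59% and 8.68% in paternal high-fat offspring and 4.48%, 0.935%, 5.10%, 2.05% and 3.52% in paternal chow offspring. The lowest high-fat animal lay just above the highest chow animal, and the means were 8.27% ± 2.50 and 3.22% ± 1.72 (SD, n = 5 each) and a q-value of 7.2073e-06 in the authors' deposited table. At chr7:22055067-22055124 the level was 4.56%, 7.07%, 4.63%, 3.51% and 3.05% in paternal high-fat offspring and 0.780%, 1.39%, 0.534%, 1.89% and 0% in paternal chow offspring. The means were 4.56% ± 1.56 and 0.919% ± 0.739 (SD, n = 5 each), and the q-value in the authors' deposited table was 0.00043253. This region lies 398921 bases from ENSRNOG00000051635, so the name says little about a 5.8S gene.

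Close to the start sites the groups overlapped at all 27 regions. The nearest regions, at 261 to 292 bases, were chr7:711997-712149, with 7.62% ± 2.22 in paternal high-fat and 6.36% ± 2.24 in paternal chow offspring, and 2 regions at ENSRNOG00000056513 on chromosome 2. At chr2:128818135-128818188 the means were 14.3% ± 7.58 and 12.9% ± 9.998 (SD, n = 5 each), and the difference of 1.40 points became -0.78 without 22HFB and 5.57 without 6HFB. At chr2:128817585-128817633, upstream of the start, they were 9.46% ± 3.51 and 6.97% ± 4.62, a difference of 2.50 points that was 1.39 without 22HFB, 1.44 without 8HFB and 4.44 without 6HFB. The difference of 1.25 points at chr7:711997-712149 was 0.41 without 4HFB, 0.60 without 28HFB, 1.93 without 24HFB and 1.92 without 6HFB. None of these differences exceeded the spread between animals. The largest difference within 10000 bases was at chr2:549555-549649, 1042 bases upstream of ENSRNOG00000061306. Its level was 55.1%, 60.02%, 51.5%, 55.3% and 58.0% in paternal high-fat offspring and 43.8%, 34.3%, 45.1%, 57.9% and 48.0% in paternal chow offspring. Only 6HFB among the chow animals reached the high-fat range, and the means were 56.0% ± 3.22 and 45.8% ± 8.49 (SD, n = 5 each).

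At 8 of the 63 regions the 5.8S level was lower in paternal high-fat offspring, and the groups overlapped at each. The largest of these differences, -8.66 points, was at chr1:11911022-11911043, with 23.99% ± 8.65 in paternal high-fat and 32.7% ± 7.71 in paternal chow offspring (SD, n = 5 each). A neighbour of the same copy, chr1:11910383-11910409, had 52.1% ± 8.50 against 58.1% ± 9.16. The other 7 regions of this copy had the opposite direction. Of 31 pairs of neighbouring 5.8S regions at most 500 bases apart, 8 pairs had opposite directions.

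The 5S genes had 20 regions, of which 5 lay at an annotated 5S copy on chromosome 19, ENSRNOG00000055067, and 15 lay 1323 bases or more from the copy that names them. The chromosome 19 copy was the only 5S copy with a region within 1000 bases. Methylation there was lowest near the start and rose after it. The mean over the 10 animals was 33.5% at 210 bases and 23.6% at 36 bases before the start. It was 38.6% at 72, 64.3% at 377 and 89.8% at 772 bases after it. The regions at 377 and 772 bases were annotated as termination site, so they may describe the flank of the copy. All 5 regions were lower on average in paternal high-fat offspring, and none separated the groups. Over the 5 regions the level was 48.8%, 42.3%, 40.2%, 58.6% and 48.0% in paternal high-fat offspring and 54.6%, 53.0%, 58.5%, 56.2% and 39.6% in paternal chow offspring. Each group held 1 animal at the other group's level: 26HFB of the high-fat group was the highest of the 10 and 8HFB of the chow group the lowest.

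The difference at the copy was largest at chr19:56338360-56338593, 377 bases after the start, and was the lowest of all 8957 regions at -11.7 points. The level was 61.8%, 47.9%, 49.6%, 74.4% and 58.6% in paternal high-fat offspring and 74.8%, 75.7%, 77.8%, 72.1% and 50.7% in paternal chow offspring. Apart from 26HFB and 8HFB, which exchanged places, the other 4 high-fat animals lay below the other 4 chow animals, and the means were 58.5% ± 10.6 and 70.2% ± 11.1 (SD, n = 5 each). At chr19:56338860-56338919, 36 bases before the start, the means were 21.6% ± 7.45 and 25.5% ± 7.68, a difference of -3.93 points. It was -7.24 without 8HFB, -6.90 without 26HFB, -2.48 without 6HFBB and -1.998 without 24HFB. At chr19:56338709-56338854 the means were 37.0% ± 6.43 and 40.1% ± 7.13, a difference of -3.13 points that was -6.05 without 8HFB, -5.63 without 26HFB, -1.98 without 22HFR, -1.48 without 24HFB, -1.55 without 6HFBB and -2.002 without 6HFB. At chr19:56338986-56339141, with 24 CpGs, they were 32.8% ± 7.29 and 34.2% ± 7.30, and the difference of -1.40 points ran from -4.25 without 8HFB to 0.53 without 22HFR. Those 3 differences were within the spread between animals, and their size rested on which animal was left out.

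**Figure D4:**
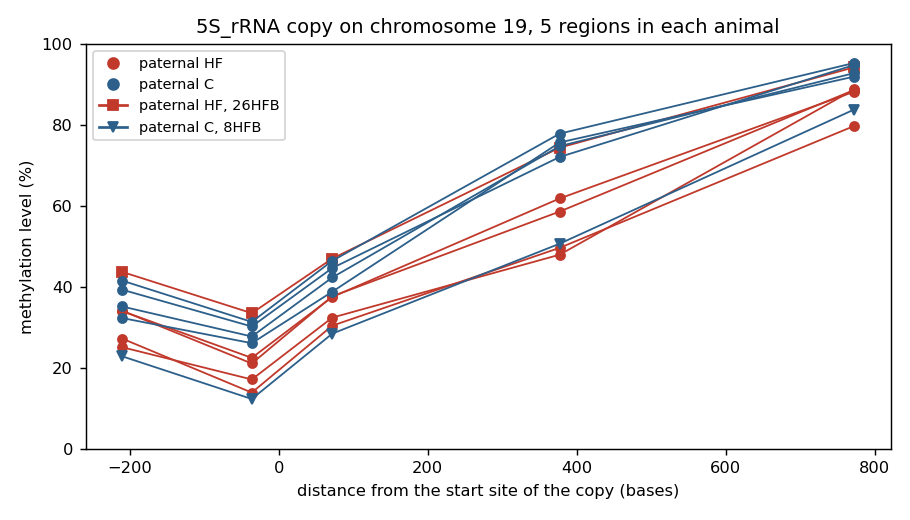
Methylation level (percent) of the 5 regions of the 5S_rRNA copy on chromosome 19 in each animal, joined by lines, against the distance from the start site (bases). Paternal high-fat animals are red and paternal chow animals blue; high-fat animal 26HFB (squares) runs with or above the chow animals and chow animal 8HFB (triangles) runs with or below the high-fat animals.

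Elsewhere 12 of 15 5S regions were higher in paternal high-fat offspring. At chr12:9642295-9642368, 9497 bases from ENSRNOG00000036163, the level was 16.6%, 23.1%, 23.4%, 25.1% and 17.2% in paternal high-fat offspring and 13.9%, 9.33%, 10.7%, 13.3% and 11.4% in paternal chow offspring. The groups did not overlap, and the means were 21.1% ± 3.88 and 11.7% ± 1.86 (SD, n = 5 each). In the authors' deposited table this region had a q-value of 1. The region with a q-value of 0.010304 in the authors' deposited table was chr20:46585971-46586045, 5557 bases from ENSRNOG00000044128. It was nearly fully methylated, with 98.3%, 98.7%, 97.2% and 94.6% in 4 paternal high-fat offspring (26HFB had no value) and 82.5%, 92.7%, 91.1%, 91.9% and 93.1% in paternal chow offspring. The groups lay apart, with means of 97.2% ± 1.85 (n = 4) and 90.3% ± 4.40 (n = 5). At chr6:110013005-110013122, 57838 bases from its copy, the groups overlapped at 42.5% ± 9.10 and 34.8% ± 9.47, and the difference of 7.70 points was 4.59 without 24HFB. Over the 19 complete 5S regions the animals averaged 23.3% ± 1.91 in paternal high-fat and 23.0% ± 2.18 in paternal chow offspring (SD, n = 5 each), a difference of 0.33 points within the spread that was -0.46 without 26HFB and -0.63 without 8HFB.

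The 7SK regions were all at least 5041 bases from the annotated copy, and 19 of 23 were intergenic, so they describe the surroundings of annotated 7SK copies. Their levels were the most spread out, from 1.52% to 97.5%, with 5 regions above 80%. The mean over 22 complete regions was 33.7%, 36.5%, 34.5%, 35.2% and 35.3% in paternal high-fat offspring and 33.6%, 32.2%, 33.4%, 35.3% and 34.3% in paternal chow offspring. The groups overlapped, at 35.0% ± 1.06 and 33.7% ± 1.16 (SD, n = 5 each). The only region with separate groups was lower in paternal high-fat offspring. It was chr2:26121534-26121598, in the last exon of a transcript, with 97.8%, 95.8%, 96.7%, 96.7% and 95.5% in paternal high-fat and 99.0%, 98.8%, 97.9%, 97.9% and 98.5% in paternal chow offspring. The means were 96.5% ± 0.913 and 98.4% ± 0.509 (SD, n = 5 each), 1.93 points apart near full methylation.

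The 7SK region with the largest positive difference was chr1:84802638-84802702, in an intron and 5041 bases from its copy, where 26HFB had no value. The level was 46.2%, 40.01%, 51.6% and 32.5% in 4 paternal high-fat offspring and 30.8%, 30.8%, 26.02%, 29.6% and 38.3% in paternal chow offspring. The groups overlapped through 28HFB and 8HFB, and the means were 42.6% ± 8.21 (n = 4) and 31.1% ± 4.46 (n = 5). The largest negative difference was at chr1:208824062-208824110, the 7th lowest difference of all regions at -9.60 points. It had 60.04%, 73.2%, 54.1%, 56.8% and 71.7% in paternal high-fat offspring and 78.2%, 75%, 67.8%, 68.8% and 74.0% in paternal chow offspring. There 3 high-fat animals lay below every chow animal and 2 lay within the chow range, with means of 63.2% ± 8.75 and 72.8% ± 4.39. At chr11:35163380-35163464 the means were 66.9% ± 6.35 and 59.3% ± 6.005, and at chr6:137110524-137110817 they were 25.4% ± 3.84 and 18.4% ± 7.91 (SD, n = 5 each); both overlapped. In the second of these, chow animals 2HFB and 4HFB were at 9.88% and 9.85% and the other 3 were within the high-fat range.

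Ubtf, the RNA polymerase I factor, was nearly unmethylated at all 8 of its regions, from 1.14% to 4.51%. The mean over them was 3.31%, 3.37%, 2.64%, 2.08% and 2.47% in paternal high-fat offspring and 1.35%, 2.08%, 2.06%, 1.69% and 1.5003% in paternal chow offspring. The groups met only where 26HFB equalled 4HFB to 2 decimals, and the means were 2.77% ± 0.557 and 1.74% ± 0.329 (SD, n = 5 each). The difference of 1.04 points was larger than either SD, on levels at which a few reads can move a value, and depth is unknown. It was not particular to Ubtf. Over the 8838 complete regions of the whole table the difference was 1.10 points. There the groups lay apart, at 6.44% to 8.17% in paternal high-fat and 5.67% to 6.43% in paternal chow offspring. Paternal high-fat offspring had the higher mean at 6 regions and the lower mean at 2. All 8 had a q-value of 1 in the authors' deposited table.

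Of the 8 Ubtf regions, 2 separated the groups, beside 5.15% of all regions. In intron 13 of 20, chr10:90255162-90255307, 9782 bases inside the gene, the level was 5.19%, 9.74%, 5.08%, 5.39% and 8.48% in paternal high-fat offspring and 1.92%, 2.84%, 1.92%, 1.595% and 2.90% in paternal chow offspring. The means were 6.78% ± 2.18 and 2.24% ± 0.596 (SD, n = 5 each), the largest difference at this gene at 4.54 points. At the promoter, chr10:90265371-90265394, 366 bases before the start, it was 1.32%, 2.40%, 5.05%, 1.07% and 1.36% in paternal high-fat offspring and 0.567%, 0%, 0.594%, 0.480% and 0.126% in paternal chow offspring. The means were 2.24% ± 1.66 and 0.353% ± 0.272, and the difference of 1.89 points was 1.18 without 24HFB. A second promoter region at 471 bases before the start, chr10:90265455-90265520, overlapped, with 2.94% ± 1.34 against 1.604% ± 0.422 (SD, n = 5 each).

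The other 5 Ubtf regions lay in the first intron, between 489 and 2358 bases after the start, and differed in direction over short distances. At 489 bases the means were 3.42% ± 1.08 in paternal high-fat and 2.39% ± 0.696 in paternal chow offspring. At 1440 bases they were 1.18% ± 0.460 and 2.57% ± 1.26, a difference of -1.38 points that was -0.84 without chow animal 4HFB at 4.75%. At 1860 bases the order was the other way, with 1.69% ± 0.723 and 0.597% ± 0.551. At 2137 bases they were 0.770% ± 0.708 and 2.33% ± 1.08. At 2358 bases they were 3.17% ± 3.42 and 1.80% ± 1.75 (SD, n = 5 each), and the difference of 1.37 points was -0.09 without 22HFB at 8.97% and 2.09 without 6HFBB. None of these 5 separated the groups, and 3 of the 4 pairs of Ubtf regions at most 500 bases apart had opposite directions.

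**Figure D5:**
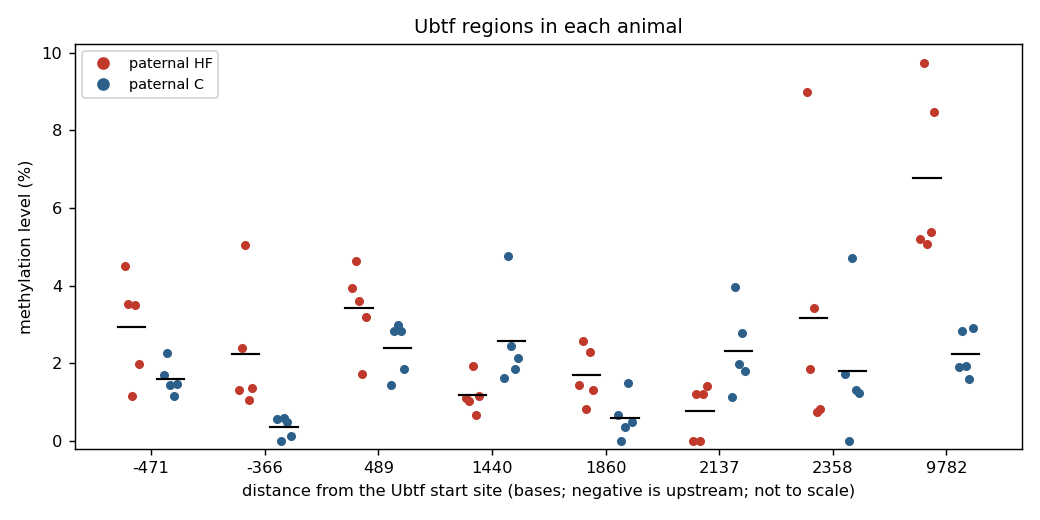
Methylation level (percent) of the 8 Ubtf regions in each animal, ordered by distance from the start site (bases, negative before the start, not to scale); paternal high-fat animals are red and left of the paternal chow animals in blue, and lines are group means. The groups lie apart at 366 bases before and 9782 bases after the start and overlap at the other 6 regions.

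Genes that work with these RNAs had few regions, and with limma 0 of the regions of every list passed an adjusted p of 0.05. The lists were chosen by gene function from textbook knowledge, but with earlier results of these data known, so their counts are descriptions. Of all regions 71.0% had the higher mean in the high-fat group, with a median difference of 1.41 points. Of 25 genes of the RNA polymerase I machinery, 4 had a region, and all 4 regions were higher in that group, with a median difference of 2.25 points. They included the promoter of Taf1d, a subunit of the selectivity factor, at 3.89% ± 3.03 against 1.21% ± 1.27, and that of Myc, an activator of ribosomal RNA synthesis, at 2.54% ± 1.61 against 0.732% ± 0.700 (SD, n = 5 each). Of 30 genes of RNA polymerase III and 5S handling, 9 had 11 regions, 9 of them higher, with a median difference of 1.73 points. Brf2, the initiation factor used at promoters of the 7SK kind, had its promoter at 3.82% ± 2.55 against 1.13% ± 1.61, with chow animal 2HFB inside the high-fat range. Of 13 genes of the 7SK complex and P-TEFb, 5 had 8 regions, 4 higher and 4 lower, with a median difference of 0.02 points. Ccnt2, a cyclin subunit of P-TEFb, had an intron region at 5.08% ± 3.88 in paternal high-fat and 1.79% ± 2.14 in paternal chow offspring (SD, n = 5 each), with overlapping groups.

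Of 22 genes that act on ribosomal DNA chromatin, 8 had 13 regions, 9 higher and 4 lower, a share close to that of all regions, with a median difference of 1.68 points. Baz2a, a subunit of a complex known in mouse to silence ribosomal DNA, had an intergenic region at 0.586% ± 0.149 in paternal high-fat and 2.67% ± 1.78 in paternal chow offspring (SD, n = 5 each). Of 31 genes of the nucleolus and ribosomal RNA processing, 8 had 12 regions, 11 of them higher, with a median difference of 1.45 points. The region at the promoter of Ddx21, a nucleolar RNA helicase, was the only region of these lists with separate groups. It had 6.47%, 3.89%, 8.97%, 3.47% and 3.68% in paternal high-fat offspring and 0.981%, 1.30%, 1.99%, 0.739% and 0.505% in paternal chow offspring. The groups did not overlap, with a q-value of 0.70846 in the authors' deposited table.

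Marker genes of other cells that a dissection can hold were also counted. Of 9 oligodendrocyte markers 5 had 7 regions, 5 higher and 2 lower beside 71.0% higher of all regions, and their summed level was 134% to 160% in paternal high-fat and 107% to 136% in paternal chow offspring. Mbp, a myelin gene, was at 71.3% ± 7.51 against 57.0% ± 9.98 (SD, n = 5 each). The 2 regions of Rax, the 1 gene of 8 astrocyte and tanycyte markers with a region, were higher. Of 8 vessel and pituitary markers, Kdr was higher and Pomc lower; Pomc is also expressed by neurons of the arcuate nucleus itself and does not mark pituitary here. In the table, 0 of 6 microglia markers had a region. The part of cell makeup in the levels of the 114 regions was not tested.

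The names with the most similar animal pattern were found by correlating the animals' means, centred within each group, over the 10 animals among 5508 names. As the highest of many, these values are descriptions. For 5_8S_rRNA they were AABR07000392.1 (r = 0.91), AABR07071288.1 (r = 0.89) and Slc9b2 (r = 0.87). The first of the 3 regions nearest to AABR07000392.1 starts at base 11911113 of chromosome 1, where the last region of 5.8S copy ENSRNOG00000051831 ends. Its level was 14.8%, 34.3%, 32.1%, 52.5% and 51.4% in paternal high-fat offspring and 19.8%, 39.99%, 35.0%, 58.4% and 6.16% in paternal chow offspring, again with 6HFB highest and 8HFB lowest. For 5S_rRNA the names were Gsr (r = 0.91), LOC103689941 (r = 0.86) and Pias3 (r = 0.86), for 7SK Zfp90 (r = 0.96), Klhl29 (r = 0.92) and Hunk (r = 0.92), and for Ubtf Ado (r = 0.95), Adap2 (r = 0.91) and Celf4 (r = 0.88).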

How the data were processed

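Reduced representation bisulfite sequencing of 10 samples was deposited as a single table; per the submitters' processing notes, Trim Galore, Bismark and Bowtie were used, and per the file headers regions were called with metilene between the groups. Neither the build, the coverage filter nor the handling of multiply matching reads is given in the sources used here. The authors deposited a methylation fraction per animal and region, group means, p-values and a q-value; the fraction was multiplied to percent. Depth is unknown, so no interval is given. Start positions are printed as deposited, without knowledge of whether they count from 0 or 1. Of 89570 values 127 were missing, 2 of them among the 114 regions. Per the file headers, the animal columns sit under a group heading and match none of the sample titles, so replicates are unnumbered.

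All 8957 regions were fitted with limma 3.58.1 in R 4.3.3 (percent scale, mean-variance trend, Benjamini-Hochberg, threshold 0.05), tested on simulated data. Other values used Python 3.11.15 and pandas 2.3.3, and figures matplotlib 3.10.9. The p-values cover only the spread between samples. Groups lie apart where every animal of a group exceeds every animal of the other. Regions named were all of Ubtf and, for each other name, those with a q-value below 0.05, the 3 nearest, the 4 largest without overlap and the 2 largest with overlap; neighbours and list genes with the smallest p were added as examples. The members and lists were chosen with earlier results of these data known. Alternatives were a logit scale (offset 0.01), at least 15 CpGs, distances within 10000 bases, a difference of at least 2 points, the deposited group means, other limma settings and leaving out each animal.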

Additional observations from a re-analysis of the deposited data

Results flagged for a closer look

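In a group of 5 animals, a value was listed here when its gap to the nearest other exceeded 0.71 of the group's range. Of 106 groups looked at, 7 had such a value, and chance gives about 1 in 20. Animal 8HFB of the paternal chow group stood low 3 times, at 5S: 50.7% at chr19:56338360-56338593, where the other 4 had 72.1% to 77.8%, 12.3% at chr19:56338860-56338919, where the others had 26.1% to 31.3%, and 19.1% for the mean over the 5S regions, where the others had 23.5% to 24.4%. The first 2 belong to the same copy, and the third includes them. Paternal chow animal 2HFB had 82.5% at the 5S region chr20:46585971-46586045, where the others had 91.1% to 93.1%, and 3.95% at the Brf2 promoter, where the others had 0% to 0.872%. Paternal chow animal 4HFB had 4.75% in the Ubtf intron region 1440 bases after the start, where the others had 1.63% to 2.45%. In the paternal high-fat group, 22HFB had 61.1% in an exon near Brf2, where the others had 34.7% to 40.1%.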

How the results depend on the processing

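Without each animal in turn, regions with separate groups numbered 7 to 13 (12 without 24HFB, 11 without 28HFB, 12 without 6HFBB and 13 without 6HFB, or 10.5%, 9.65%, 10.5% and 11.4%), since fewer animals separate more easily. Over all regions the shares without those animals were 8.41%, 8.73%, 8.69% and 8.28%. Among regions with at least 15 CpGs there was 1 of 26 (3.85%), beside 6.79% of all such regions. Regions higher in paternal high-fat offspring were 58 of 78 within 10000 bases (74.4%, beside 71.0% of all such regions) and 23 of 26 with at least 15 CpGs (88.5%, beside 74.6%). With each copy counted once, 38 of 48 were higher, and no share over all genes was computed. Within 10000 bases 5S had 5 of 11 higher, 7SK 5 of 9, and 1 of 78 had a deposited q-value below 0.05 (1.28%, beside 0.848%). Of 270 differences of named regions without 1 animal, 263 kept their sign; those that did not were at 5S chr19:56338986 (-4.25 to 0.53 points), 5.8S chr2:128818135 (-0.78 to 5.57) and Ubtf chr10:90262530 (-0.085 to 2.09). The mean difference over the 112 complete regions was 2.20 points, from 1.31 without 8HFB to 3.27 without 6HFB. With limma 0 regions passed under each alternative; the smallest adjusted p was 0.0833 without the trend. The cause of these shifts was not tested. No paired analysis was possible because the animal columns carry none of the replicate numbers of the sample titles. Depth is unknown, so how far counting error adds to the low levels of Ubtf cannot be stated.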
